A study of Mus musculus with 24 samples.

Results

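The 43 genes described here encode the contractile, calcium-handling and energy-supplying proteins of skeletal muscle fibres, and were measured in the inguinal white adipose tissue of young mice. They were taken as a named list by gene symbol. All 43 were among the 16118 genes of the deposited table, and all 43 passed the filter on low values (at least 10 reads in enough libraries), which kept 16005 genes. The subcutaneous inguinal fat pad was collected from 24 mice, 4 in each of 6 groups. Males and females were taken on postnatal day 21 (p21). Further males and females were taken on postnatal day 28 (p28). Of these, the standard weaning groups (SW) had left their mother at p21, and the delayed weaning groups (DW) had stayed with her. The labels name no strain, genotype or drug. They give the p21 animals the weaning label SW although these were taken on the day of separation, and the titles of the p21 samples read p28 while their age field and library names read p21, which was followed here. Each library is 1 animal. The study asked how prolonged nursing changes this fat depot in each sex.

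A sarcomere is the repeating unit of a muscle fibre: thick filaments of myosin pull on thin filaments of actin, and troponin on the thin filament gates that pull in response to calcium released from the sarcoplasmic reticulum. Most of these proteins come in a fast and a slow version, each from its own gene, and a fibre's type is read from its myosin heavy chain: Myh4 encodes the fastest (type 2B), Myh1 the 2X, Myh2 the 2A and Myh7 the slow (type 1) form. White fat cells do not build sarcomeres, and in the mouse the inguinal pad lies on the muscles of the groin and hind limb.

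The sequence just before the start of transcription is shown for the 4 adult myosin heavy chains, whose proportions are compared between animals further on, and for Acta1, the actin of the skeletal thin filament. The 3 fast heavy chains lie next to one another on chromosome 11. The windows are the 250 bases before the start in RefSeq's annotation of GRCm38.p6, printed 5′ to 3′ on the gene's strand: chr11:67237562-67237811 (plus strand) for Myh4, chr11:67199852-67200101 (plus) for Myh1, chr11:67170777-67171026 (plus) for Myh2, chr14:54994550-54994799 (minus, 1 of 2 windows) for Myh7 and chr8:123894776-123895025 (minus) for Acta1. Capitals mark matches to an E-box (CANNTG), to the MEF2 motif, to the CArG box or to TATAAA, on either strand and with overlaps allowed.
Myh4: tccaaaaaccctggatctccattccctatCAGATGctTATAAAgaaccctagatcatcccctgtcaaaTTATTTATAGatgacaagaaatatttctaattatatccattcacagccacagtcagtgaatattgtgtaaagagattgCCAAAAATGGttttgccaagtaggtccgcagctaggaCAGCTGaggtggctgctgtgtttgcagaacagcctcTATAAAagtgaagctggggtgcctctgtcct
Myh1: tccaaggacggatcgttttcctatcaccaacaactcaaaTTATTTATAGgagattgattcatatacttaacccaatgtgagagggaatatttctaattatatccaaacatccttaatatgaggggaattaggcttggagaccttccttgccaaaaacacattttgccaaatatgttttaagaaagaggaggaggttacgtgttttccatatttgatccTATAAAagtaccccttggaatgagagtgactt
Myh2: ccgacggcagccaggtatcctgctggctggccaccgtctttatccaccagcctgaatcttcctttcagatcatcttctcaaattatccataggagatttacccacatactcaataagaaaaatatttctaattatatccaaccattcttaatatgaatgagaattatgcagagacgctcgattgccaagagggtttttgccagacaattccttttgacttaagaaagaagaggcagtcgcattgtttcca
Myh7: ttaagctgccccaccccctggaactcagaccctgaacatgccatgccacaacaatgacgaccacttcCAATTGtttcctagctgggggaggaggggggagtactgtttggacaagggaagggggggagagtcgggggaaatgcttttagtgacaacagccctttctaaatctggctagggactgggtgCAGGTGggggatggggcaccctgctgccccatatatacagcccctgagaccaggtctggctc
Acta1: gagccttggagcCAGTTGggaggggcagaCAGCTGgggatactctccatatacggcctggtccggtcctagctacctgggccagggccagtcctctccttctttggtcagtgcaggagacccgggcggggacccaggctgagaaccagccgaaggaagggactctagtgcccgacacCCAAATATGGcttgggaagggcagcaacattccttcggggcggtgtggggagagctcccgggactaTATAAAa
The Myh4 window held a MEF2 match starting 182 bases before the start, a CArG match at 104 bases, 3 TATAAA matches and 2 E-boxes, 1 of them CAGCTG. Myh1 held a MEF2 match at 211 bases, 2 TATAAA matches and no E-box, Myh2 held none of these motifs, and Myh7 held 2 E-boxes. Acta1 held 2 E-boxes, a CArG match at 73 bases and TATAAA at 7 bases. Of the 43 genes, 32 had a window in the table, with 39 windows in all, some of which overlap. CANNTG was in 32 of the 39 windows (82.1%) against 66.2% of the other 32812 windows, and CAGCTG in 17 (43.6%) against 13.0%. MEF2 was in 8 (20.5%) against 2.9%, CArG in 5 (12.8%) against 1.5%, and TATAAA in 7 (17.9%) against 12.4%. These are matches of letters and were not tested.

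The libraries held 57600711 to 302145813 reads on the listed genes. P21 male 53 had reads on 14054 genes against 15859 to 15977 in the rest of its group, and SW male 84 on 15497 against 15955 to 16042, and the counts of genes called from p21 to p28 in males are given with and without both. Genes of white adipocytes marked every library: the 10 on the list (Fabp4, Adipoq and others) summed to between 16440 and 28050 deposited units per animal. Values are the deposited ones, in which each animal's reads are divided by a factor of its own. In these units 3 reads, the limit that a count of 0 allows, are worth 0.0107 to 0.0462 depending on the animal. In bulk tissue, fewer muscle fibres and less RNA per fibre cannot be told apart.

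The 43 genes took between 0.00962% and 1.11% of an animal's reads, a 114.9-fold span. The lowest share was that of p21 male 54 (95% exact binomial interval 0.00943 to 0.00980%) and the highest that of DW male 86 (1.103 to 1.107%); such intervals cover counting error only. Without Acta1 and Ckm the span was 101.5-fold. In p21 males the shares were 0.00982, 0.109, 0.0208 and 0.00962% in animals 37, 38, 53 and 54, and in p21 females 0.108, 0.269, 0.00974 and 0.00990% in animals 30, 36, 55 and 56. In SW males they were 0.607, 0.0725, 1.042 and 0.467% in animals 78, 84, 85 and 124, and in SW females 0.217, 0.293, 0.0749 and 0.483% in animals 73, 74, 75 and 81. In DW males they were 0.280, 0.0589, 1.11 and 0.741% in animals 79, 80, 86 and 87, and in DW females 0.0332, 0.0172, 0.0104 and 0.446% in animals 76, 77, 82 and 83. Shares differed widely within every group, but the lowest pads were not spread over all groups. The lowest shares of SW males, SW females and DW males were 0.0725, 0.0749 and 0.0589%. Those of p21 males 37, 53 and 54, p21 females 55 and 56 and DW females 76, 77 and 82 all lay below these. Only 2 of 24 pads, both from p28 males, passed 1%. Group means were 0.0373 ± 0.0480% (SD, n = 4) in p21 males, 0.0991 ± 0.122% in p21 females, 0.547 ± 0.40% in SW males, 0.267 ± 0.17% in SW females, 0.546 ± 0.469% in DW males and 0.127 ± 0.213% in DW females (n = 4 each). No test was made on this share, since it is a sum over a chosen list.

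**Figure D1:**
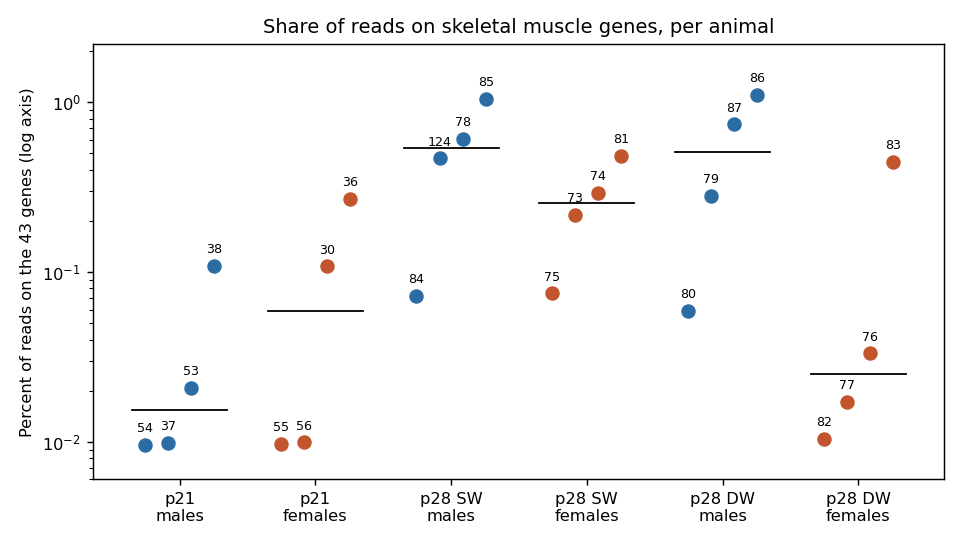
Percent of reads on the 43 muscle genes in each of 24 animals (log axis), by group. Blue points are males, orange points females, numbers are animal numbers and the black line is the group median. The shares run from 0.00962% in p21 male 54 to 1.11% in DW male 86. Above every p21 animal are SW males 78, 85 and 124, DW males 79, 86 and 87, SW females 74 and 81 and DW female 83.

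Most genes of the list were high in the same animals. SW male 85 had the highest value of 29 of the 43 genes, DW male 86 of 13, and SW female 81 of the remaining one, Cox6a2. Acta1 stood at 0.214, 44.1, 3.71 and 0.432 in p21 males 37, 38, 53 and 54, and at 45.4, 165.5, 0.337 and 0.312 in p21 females 30, 36, 55 and 56. It stood at 300.6, 41.8, 672.9 and 344.0 in SW males 78, 84, 85 and 124, and at 143.7, 30.9, 667.5 and 378.0 in DW males 79, 80, 86 and 87. In females it stood at 106.4, 242.2, 37.3 and 428.0 (SW animals 73, 74, 75 and 81) and at 16.3, 5.08, 0.775 and 142.9 (DW animals 76, 77, 82 and 83). The groups overlap widely: p21 females 30 and 36 exceeded SW male 84, and DW female 83 exceeded SW females 73 and 75.

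Ckm, the creatine kinase that buffers ATP in muscle fibres, was used to split the pads into a low and a high set at a value of 1. It was below 1 in 6 animals: 0.0776, 0.894 and 0.0498 in p21 males 37, 53 and 54, 0.0578 and 0.119 in p21 females 55 and 56, and 0.0158 in DW female 82. The last of these is 2 reads. In the other 18 animals it ran from 3.87 in DW female 77 to 642.4 in DW male 86. The values are graded, and the cut does not mark 2 classes of pads. By share of reads on the list, p21 male 53 (0.0208%), below the cut, exceeded DW female 77 (0.0172%), above it. In the 6 pads low in Ckm, Myh4 and Acta1 were low as well: Myh4 was at most 6.06 there and at least 15.9 in the other 18, and Acta1 at most 3.71 against at least 5.08. Not every fast gene separated the pads in this way: p21 male 53, with Ckm at 0.894, had Myh1 at 5.50 against 1.12 in DW male 80, and Pvalb at 6.01 against 2.04 in DW female 77. Myh4 had 0 reads in p21 male 54, and Myot, a Z-disc protein gene, had 0 reads in 4 animals.

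**Figure D2:**
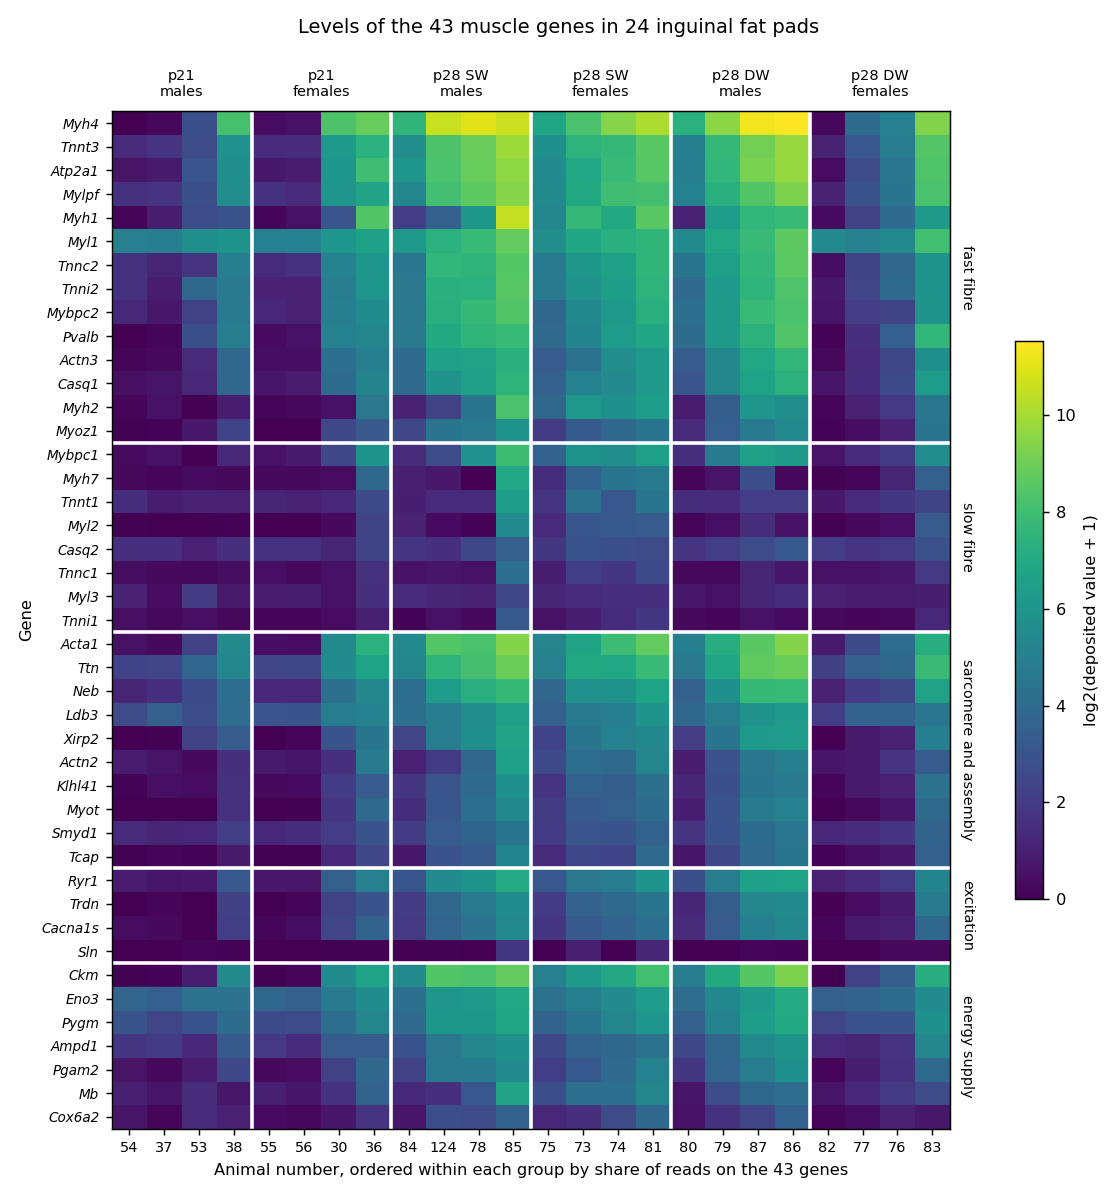
Heat map of log2(deposited value + 1) of the 43 genes (rows, by role) in 24 animals (columns, by group, ordered within a group by the share of reads on the list). Most rows brighten together from left to right within each group, while the slow fibre rows stand out in SW male 85 and the rows of Myl1 and Eno3 keep a level in every pad.

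From p21 to p28 under standard weaning, 26 of the 43 genes were higher in males by limma's moderated test on log2(value + 1) with Benjamini-Hochberg adjustment over all 16005 genes (called at an adjusted p under 0.05). None was lower. In this comparison 11.9% of all genes were called and 6.90% were called higher. The median change of the list was 3.26 on the log2 scale, against 0.015 over all genes, and 29 of the 50 largest rises in the fit were on the list. For 13 genes every SW male exceeded every p21 male, which held for 8.53% of all genes. A change on this scale understates that of genes near 0. All p21 animals are numbered 30 to 56 and all p28 animals 73 to 124. Age therefore cannot be told apart from the run of animal numbers. By edgeR on the recovered reads the number was 20, by DESeq2 36, with library quality weights 42, and without p21 male 53 and SW male 84 together 25, Myh4 then falling outside the calls (7.92). It rested on single animals: in limma it was 5, 11 and 5 without p21 males 37, 53 and 54, and 6, 1 and 11 without SW males 78, 85 and 124. The shares of all genes above are those of limma's unweighted fit. For edgeR, DESeq2 and the weighted fit none is given, here or further on, so their counts stand without one.

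Among the 14 fast fibre genes, 12 rose. Myh4 stood at 0.201, 288.8, 6.06 and 0 in p21 males 37, 38, 53 and 54 and at 2071, 186.3, 1561 and 1521 in SW males 78, 84, 85 and 124, a change of 7.12 (SE 2.00, limma adjusted p = 0.0240). The groups overlap, because p21 male 38 lay above SW male 84. Atp2a1, the calcium pump of the fast sarcoplasmic reticulum, stood at 0.789, 52.8, 7.33 and 0.548 in those p21 males and at 468.2, 66.2, 764.0 and 303.6 in the SW males, without overlap (5.62, SE 1.63, limma adjusted p = 0.0281). Tnnt3, Tnni2 and Tnnc2, the 3 fast troponins, changed by 5.29, 4.15 and 4.66, and the fast light chain Mylpf by 4.91. Actn3, the Z-disc actinin of fast fibres, changed by 4.71, and Pvalb, a calcium buffer of fast fibres, by 4.76. The 2 that did not pass were Myh1 (3.87, SE 1.81, limma adjusted p = 0.172) and Myh2 (3.60, SE 1.31, limma adjusted p = 0.0761).

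None of the 8 slow fibre genes passed in the same comparison (limma adjusted p), with changes of 0.46 to 3.90. Myh7, the slow heavy chain, stood at 0.104, 0.201, 0.277 and 0.241 in p21 males 37, 38, 53 and 54 and at 0, 1.02, 120.9 and 0.713 in SW males 78, 84, 85 and 124. Only animal 85 was high. Tnnt1, the slow troponin T, followed the same course, with 0.906 to 1.82 in p21 males and 1.57, 0.980, 84.6 and 1.58 in the SW males. Mybpc1, counted here with the slow genes as the slow form of a myosin-binding protein, changed most (3.90, SE 1.36, limma adjusted p = 0.0644). Which genes passed depended on the tool. Of the slow genes 2 had an unadjusted p under 0.05 in limma, and edgeR and DESeq2, which work on reads and not on log2(value + 1), called 6 of 8 each. Of the fast genes edgeR called 3 of 14 and DESeq2 12. The split between fast and slow genes in the limma calls is therefore no measured difference between them, and that difference was not tested.

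Of the 10 genes of the shared sarcomere and its assembly, 8 rose. Acta1 changed by 5.74 (SE 1.54, limma adjusted p = 0.0183), the giant spring protein Ttn by 4.00, the thin-filament ruler Neb by 3.99 and the Z-disc genes Myot, Tcap and Ldb3 by 3.14, 2.75 and 2.07. Of 4 genes of excitation and calcium release 3 rose: the release channel Ryr1 by 4.06, its partner Trdn by 3.47 and the voltage sensor Cacna1s by 3.18. Sln, a small inhibitor of the calcium pump, stayed at or under 2.63 in all 24 pads and had 0 reads in 10. Of 7 energy supply genes 3 rose, namely Ckm (6.07, SE 1.56, limma adjusted p = 0.0146), Pgam2 (3.26) and the glycogen phosphorylase Pygm (2.66). The muscle enolase Eno3 (1.85, limma adjusted p = 0.0560) and the oxygen store Mb (2.23, limma adjusted p = 0.121) did not pass in limma. Both passed in the other tools, Eno3 with adjusted p = 0.0344 in edgeR and 0.0137 in DESeq2, and Mb with 0.0176 and 0.000315; DESeq2 called all 7 energy supply genes and edgeR 3.

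**Figure D3:**
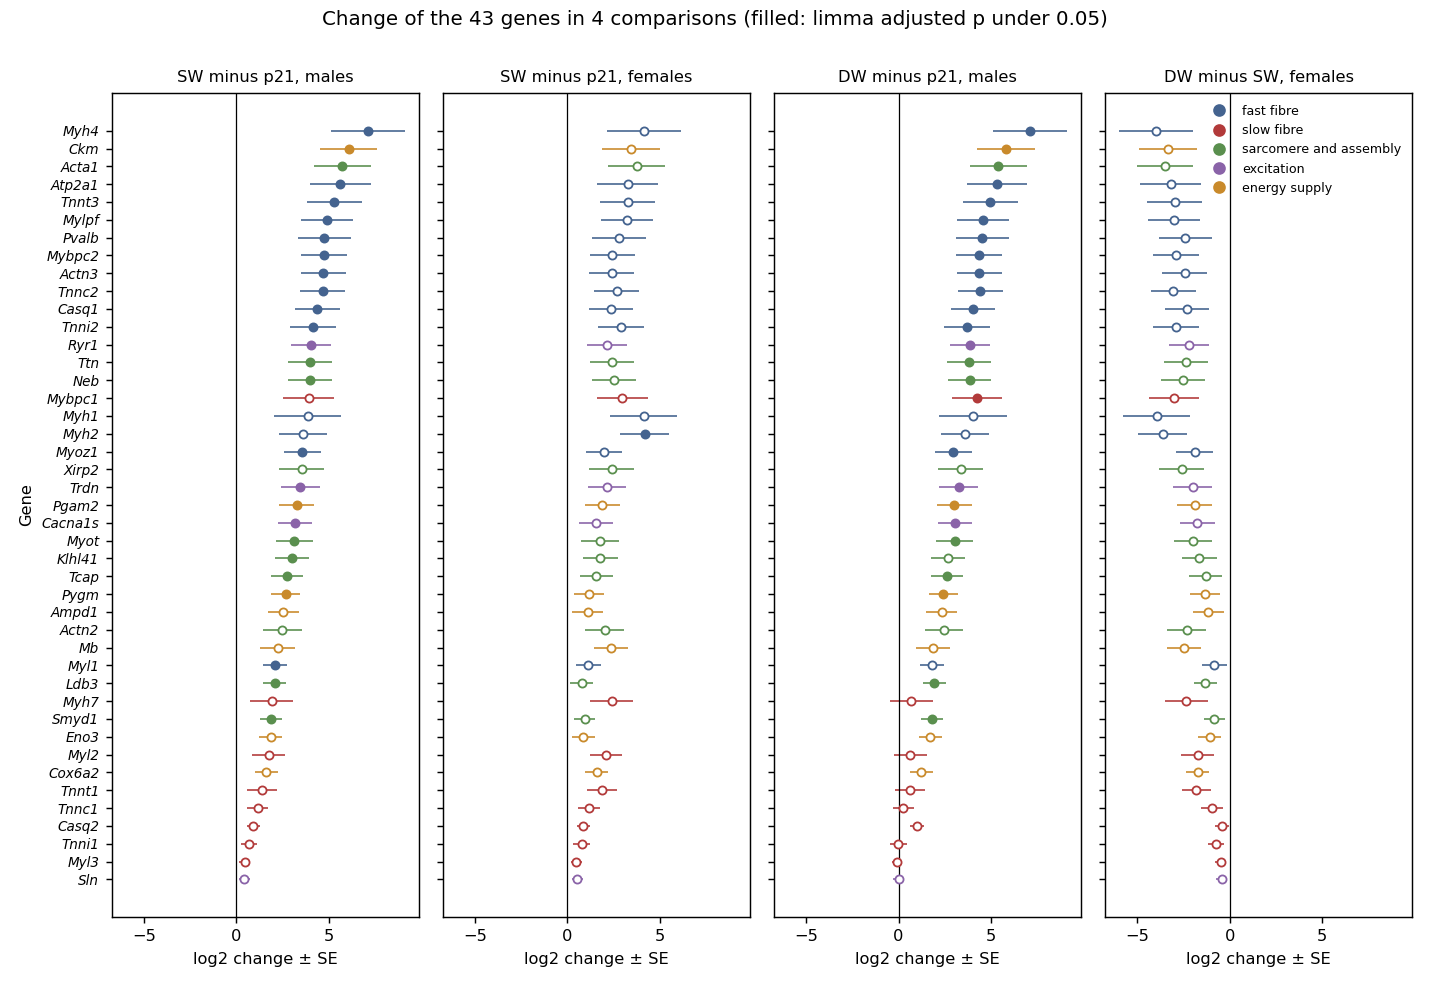
Log2 change of the 43 genes with its standard error from the fit over all genes, in 4 comparisons. Filled points have a limma adjusted p under 0.05 and colours give the role. The males' panels hold 26 and 25 filled points, the SW females' panel 1 (Myh2), and the panel of DW minus SW females none, with all 43 points below 0.

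Under delayed weaning, 25 of the 43 genes were higher in DW males at p28 than at p21 and none was lower, where 15.0% of all genes were called and 8.86% called higher. Myh4 stood at 738.8, 166.0, 2973 and 2563 in DW males 79, 80, 86 and 87 (7.13, SE 2.00, limma adjusted p = 0.0205). Ckm changed by 5.80, Acta1 by 5.40 and Atp2a1 by 5.31. The list's median change was 3.04 against 0.02 over all genes. By edgeR the count was 15, with 3 of the 14 fast genes, and by DESeq2 32, with 13. Mybpc1 was the only gene of the slow list that rose by limma (4.23, SE 1.36, limma adjusted p = 0.0404). It stood at 26.2, 2.03, 75.4 and 91.9 in the DW males against at most 1.54 in p21 males. For 3 genes, Mybpc1, Myl2 and Casq2, every DW male exceeded every p21 male, which held for 12.4% of all genes. The p21 males are shared with the SW comparison, so the 2 results are not independent. The count was 4, 2 and 3 without p21 males 37, 53 and 54, 7 without DW male 79, and 0 without 86 or without 87. Without p21 male 53 and SW male 84 together it was 6, against 25 with both; Myh4, Atp2a1, Mylpf, Tnnt3, Pvalb and Ttn were then among those not called.

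In females from p21 to p28 under standard weaning a single gene of the 43 passed, where 11.6% of all genes were called and 7.39% called higher. It was Myh2, at 0.472, 22.6, 0.116 and 0.229 in p21 females 30, 36, 55 and 56 and at 70.4, 53.6, 13.9 and 84.8 in SW females 73, 74, 75 and 81 (4.17, SE 1.31, limma adjusted p = 0.0406). Neither edgeR (adjusted p = 0.245) nor DESeq2 (adjusted p = 0.182) called it; edgeR called 0 genes, and DESeq2 called 1, Cox6a2 (DESeq2 adjusted p = 0.0477). With library quality weights limma called 21, and with the compared groups alone 4. The groups overlap, because p21 female 36 lay above SW female 75. All 43 changes were positive, with a median of 2.14 against 0.01 over all genes. Myh4 changed by 4.12 (SE 2.00, limma adjusted p = 0.212) and Acta1 by 3.74 (SE 1.54, limma adjusted p = 0.131). The count was 0 without any one of p21 females 30, 55 or 56 or SW females 73, 74 or 81, and 3 without p21 female 36. Under delayed weaning no gene passed in females (0 at an unadjusted p under 0.05 as well, and 0 by edgeR and by DESeq2), where 12.1% of all genes were called. There 27 changes were positive and the median was 0.05.

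That the females' rise differed from the males' was tested with the interaction of age and sex. It called none of the 43 under standard weaning (median difference -1.31), where 1.03% of all genes were called, and none under delayed weaning (median -3.05), where 0.0687% were called. At an unadjusted p under 0.05 the counts were 0 and 22, and edgeR and DESeq2 each called 0. The shares of all genes are for the adjusted p, and none is given at the unadjusted threshold. Myh4 had the interaction -6.97 under delayed weaning (SE 2.83, limma adjusted p = 0.234) and Ckm -5.70 (SE 2.21, limma adjusted p = 0.216).

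Weaning age itself called no gene of the list at p28. DW minus SW gave a median of -0.25 in males, where 0.256% of all genes were called, and 0 of the 43 had an unadjusted p under 0.05, although library quality weights called 5 lower. In females the median was -2.22, where 1.27% of all genes were called. All 43 female changes were negative, 15 had an unadjusted p under 0.05, and 31 were among the 50 largest falls in the fit. The 1.27% is for the adjusted p. No share of all genes is given at the unadjusted threshold or for the weighted fit. The 8 mammary epithelial markers had negative changes in the same comparison (median -1.06; limma called 0, with 6 at an unadjusted p under 0.05, and edgeR and DESeq2 called 0); their part in the muscle values was not tested. The largest change of the list was that of Myh4, at 299.7, 698.8, 108.8 and 1118 in SW females 73, 74, 75 and 81 and at 31.9, 15.9, 0.198 and 649.7 in DW females 76, 77, 82 and 83 (-3.97, SE 2.00, limma adjusted p = 0.2805). DW female 83 lay within the SW range and the other 3 DW females below it. For 3 genes, Myl3, Cox6a2 and Mb, every DW female lay below every SW female, which held for 3.52% of all genes. Cox6a2, a cytochrome oxidase subunit of muscle, stood at 1.91, 5.49, 1.44 and 13.5 against 1.23, 0.348, 0.119 and 0.652 (-1.73, SE 0.62, limma adjusted p = 0.171). It was the 1 gene that DESeq2 called in females (log2 fold change -3.23, DESeq2 adjusted p = 0.0496), while edgeR called 0 in either sex and DESeq2 0 in males. The interaction of weaning and sex called none of the 43 (0 at an unadjusted p under 0.05, 0 by edgeR and by DESeq2), where 0.0187% of all genes were called.

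No gene of the list passed between the sexes in limma's unweighted fit either, but with library quality weights 29 of the 43 were called lower in DW females than in DW males. Female minus male gave medians of 0.81 at p21, -0.64 at p28 after standard weaning and -2.24 after delayed weaning, where 0.356, 3.54 and 2.46% of all genes were called. At an unadjusted p under 0.05 the counts were 0, 0 and 27, and edgeR and DESeq2 called 0 in each. No share of all genes is given at that threshold or for the weighted fit. The smallest adjusted p among DW animals was that of Mybpc2, a myosin-binding protein of fast fibres, at 72.4, 17.4, 311.9 and 225.3 in DW males 79, 80, 86 and 87 and at 4.22, 3.22, 0.561 and 61.9 in DW females 76, 77, 82 and 83 (-3.86, SE 1.23, limma adjusted p = 0.0995). DW female 83 alone reached into the male range. After standard weaning the direction of the slow genes, Myh1 and Myh2 depended on the scale. In limma 12 of 43 changes were positive, 7 of them among the 8 slow genes (Myh7 1.42), beside Myh1 and Myh2 (1.55 for Myh2), while edgeR and DESeq2 gave 1 positive change of 43 (Myh7 -1.029 and Myh2 -0.572 in edgeR). The mean of Myh7 was 30.66 ± 60.2 (SD, n = 4) in SW males, where animal 85 alone was high, and 15.3 ± 11.2 (SD, n = 4) in SW females, and the medians were 0.868 and 16.3. Markers of mammary epithelium, which also lies in this pad in females, differed with sex: by limma 8 of 8 were higher in females in both p28 groups (edgeR called 4 after standard and 5 after delayed weaning, DESeq2 5 and 5), summing to 285.8 to 393.0 in SW and 108.4 to 239.2 in DW females against 2.13 to 47.4 and 3.51 to 14.7 in males.

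Further skeletal muscle genes rose in males as well. Of 53 further skeletal muscle genes, 52 were measured, and 23 rose from p21 to p28 in SW males and 22 in DW males, with none lower and medians of 1.48 and 1.29. Of all genes 6.90 and 8.86% were called higher in these comparisons. Myom2 of the M-line changed by 4.12 and 3.98, and Hrc, a calcium-binding protein of the reticulum, by 3.34 and 3.09. In SW females 1 of the 52 rose, Fbxo32 (0.83, SE 0.22, limma adjusted p = 0.0142), which marks protein breakdown in muscle. There 7.39% of all genes were called higher. Of 10 measured genes of muscle progenitors and their regulators limma called none in SW or DW males. An unadjusted p under 0.05 was found for 7 and 4, without a share of all genes at that threshold. In edgeR 1 was called in each, and in DESeq2 5 and 3. Genes of other cell types changed with age in males too. Of all genes 11.9% were called in SW and 15.0% in DW males, and 4.97 and 6.1% were called lower. By limma 4 of 8 lymph node and blood genes were lower in SW males and 5 in DW males (medians -0.74 and -0.87), among them Hba-a1 of red cells and Cd3e of T cells; their summed level was 623.6 to 1701 in p21, 457.9 to 613.1 in SW and 336.5 to 531.0 in DW males. Of 10 adipocyte genes 2 were higher and 1 lower in SW males and 3 higher in DW males. Of 10 smooth muscle genes 1 and 3 were higher, the 1 near the share of all genes. The part of these other cell types in the muscle values was not tested. Myod1, Myog and Myf6, transcription factors of the muscle lineage, had 0 reads in all 6 pads with Ckm below 1, and reached 1.33, 2.00 and 2.90 in SW male 85. Pax7 of satellite cells stayed at or under 0.716.

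Developmental isoforms separated a few pads from the others. Myh8, the neonatal myosin heavy chain, stood at 74.4 in SW male 85, 40.8 in SW female 73 and 13.9 in SW female 81, and at or under 1.90 in the other 21 animals. Myh3, the embryonic form, was likewise highest in animals 85 (6.33) and 73 (2.16) and at or under 0.690 elsewhere. Actc1, the cardiac actin that young skeletal muscle also makes, did not follow them: it was highest in DW male 86 (36.8), with 5.97 in animal 85 and 2.59 in animal 73. It was the 1 gene of 8 measured on this list that limma called in males, by 2.55 in SW (SE 0.73, limma adjusted p = 0.0254) and by 2.60 in DW animals. Of all genes 11.9 and 15.0% were called there, so 1 of 8 is near that share. By their own tests, edgeR and DESeq2 each called 2 of the 8 in SW males and 0 in DW males.

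To compare the makeup of the muscle signal between pads that held different amounts, each gene was divided by Ckm in the 18 animals with Ckm above 1. In these 18 animals most fast genes kept a nearly fixed ratio, although Ckm itself spanned 3.87 to 642.4. The SD of the log2 ratio had a median of 0.41 over the 14, with 0.24 for Actn3, 0.28 for Mybpc2 and 0.35 for Myh4. Acta1 had 0.34 and the calcium genes Ryr1, Cacna1s and Trdn 0.42 to 0.53. Slow genes did not: their SD ran from 1.59 (Mybpc1) to 2.76 (Myh7, in 17 animals). Among the fast genes Myh1 (2.09), Myh2 (2.03) and Myl1 (1.01) were the exceptions. Several slow genes had few reads in some of these animals, so counting error adds to their spread. A level that does not follow Ckm also widens the ratio. The highest ratio of Casq2, Myl3, Tnnt1, Tnni1 and Tnnc1 was in DW female 77, which had the lowest Ckm of the 18. That of Myh7 and Myl2 was in SW male 85 and that of Mybpc1 in SW female 73. How much each adds to the spread was not tested.

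**Figure D4:**
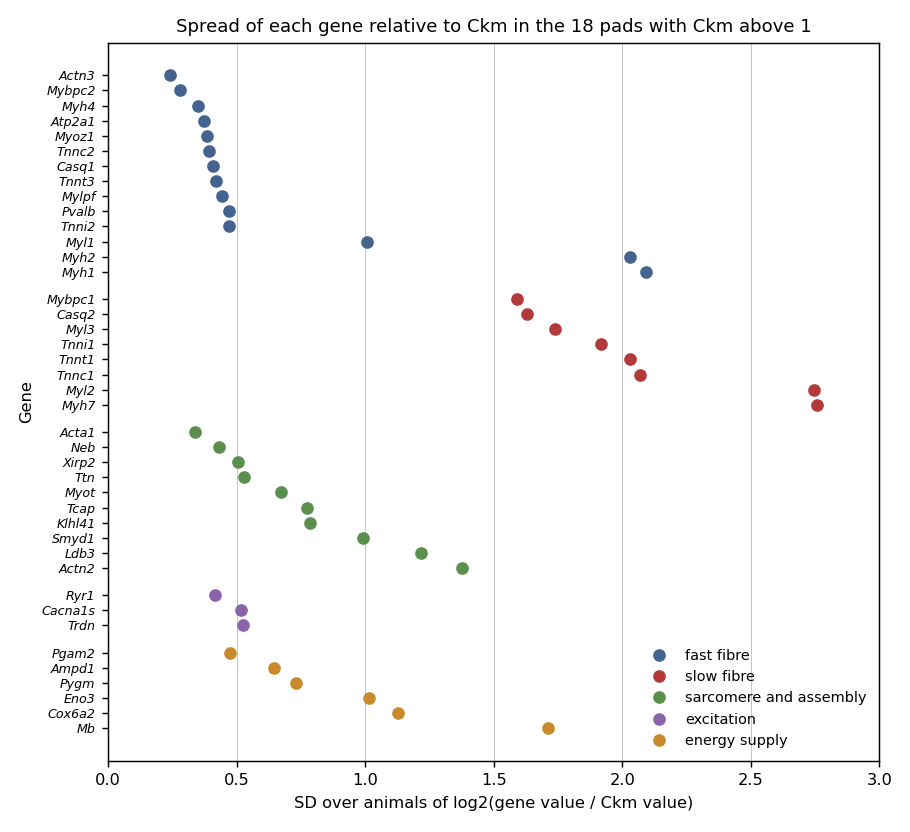
Standard deviation, over the animals with Ckm above 1, of the log2 ratio of each gene's value to that of Ckm, by role; Sln, with reads in too few of them, is left out. Of the fast genes 11 of 14 lie below 0.5, whereas every slow gene lies above 1.5, beside Myh1, Myh2 and Mb of the energy supply genes.

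With each animal's Ckm level as a covariate in the same fit, an alternative chosen after seeing the data, none of the other 42 genes passed in any of the 12 comparisons (limma adjusted p). At an unadjusted p under 0.05 there were 2, Myh1 and Myh2, in female minus male after standard weaning (2.67, SE 1.12, and 2.23, SE 0.97; limma adjusted p = 0.375 and 0.414). Ckm differs between the groups, so this fit also takes up part of the difference between them. It is on the list, and most fast genes follow it closely where it is above 1, so their change is taken out by construction. No conclusion is drawn from the absence of calls in this fit. The count over all genes for SW minus p21 males went from 1901 to 269 with it, and for DW minus p21 males from 2395 to 330.

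The adult myosin heavy chains were compared directly, since Myh1, Myh2 and Myh7 were among the genes whose ratio to Ckm varied most. In the 18 pads with at least 1000 reads on the 4 genes, each chain's level per kilobase was set against their sum. Myh4 made up 95.9, 97.2, 46.0 and 99.0% in SW males 78, 84, 85 and 124, and 89.4, 98.8, 91.5 and 90.8% in DW males 79, 80, 86 and 87. It made up 51.4, 77.7, 66.9 and 69.7% in SW females 73, 74, 75 and 81 and 62.3, 76.5 and 86.0% in DW females 76, 77 and 83. Of 8 p28 males, 7 lay above all 7 p28 females, and SW male 85 lay below them all. At p21 the share was 97.4% in male 38, 97.6% in female 30 and 55.4% in female 36. These are descriptions, with no test, because the pattern was seen in the same data.

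**Figure D5:**
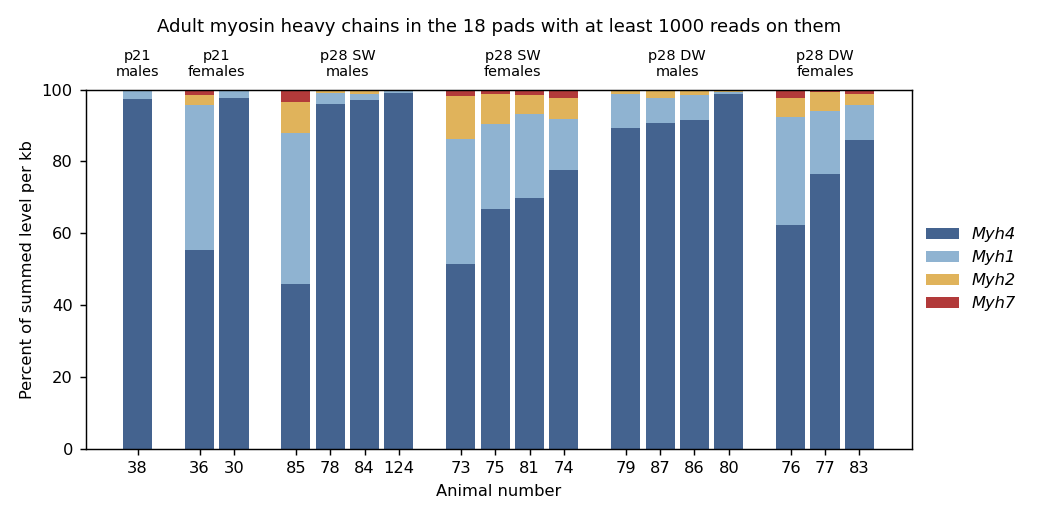
Share of each adult myosin heavy chain in the summed level per kilobase of the 4, in the 18 animals with at least 1000 reads on them. The dark Myh4 segment is 89.4% or more in 7 of 8 p28 males and 46.0% in SW male 85, and between 51.4 and 86.0% in p28 females.

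The rest of the sum was mostly Myh1, at 0.658 to 9.44% in the other 7 p28 males and 41.8% in SW male 85, and at 9.78 to 34.8% in p28 females. Myh2 made up 5.23 to 11.9% in SW females and 8.70% in SW male 85. The slow Myh7 never passed 3.44%, which was reached in SW male 85. In SW females it made up 1.10 to 2.32% and in DW males 0.00617 to 0.199%. By reads, the 8 slow genes took 6.50% of the reads on fast and slow genes in SW male 85. The share was 0.355 to 1.72% in the other SW males and 4.34 to 7.36% in SW females. Much of it was Mybpc1, with 69587 of 151149 slow-gene reads in SW male 85 and 9212 of 16937 in SW female 73. In SW male 78 Mybpc1 had 5866 of 6722, and Myh7 had 0 reads. The share is therefore not one of slow myosin alone.

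Pairs of fast and slow versions of a protein also differed between pads. Per length, Tnnt3 exceeded Tnnt1 10.6-fold in SW male 85 and 296.6, 50.4 and 199.8-fold in SW males 78, 84 and 124, and 9.17 to 25.4-fold in SW females. Over the 24 animals this ratio ran from 0.838 in p21 male 54 to 296.6, with a median of 20.4. Mylpf exceeded the slow light chain Myl2 by a median of 51.2-fold over the 18 animals with at least 10 reads on both, and Tnni2 exceeded Tnni1 by a median of 94.8-fold over 23. All 8 pairs reached 10 reads in 16 animals. The ratio of Casq1 to Casq2, the calcium stores of fast and slow fibres, was 0.2385 to 1.94 in the 6 pads with Ckm below 1 and had a median of 8.81 over all 24.

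Some genes of the list kept a level where Ckm was nearly absent. Over the 6 pads with Ckm below 1 the median of Myl1 was 33.2, 7.65% of its highest value, that of Eno3 was 11.7 (8.67%) and that of Ldb3 was 6.30 (6.71%). Casq2 (2.02) and Myl3 (1.03) kept 19.96 and 23.25% of their highest values. For Myh4 the same figure was 0.00824%, for Ckm 0.0105% and for Acta1 0.0572%. Genes with such a level span a smaller range over the 24 animals, 14.4-fold for Myl1 and 13.7-fold for Eno3 against 3152-fold for Acta1. How far reads of other genes add to these levels was not tested.

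Counting can mix some of these genes with others. In stretches of 50 bases, 32.1% of the Myh1 transcript, 28.9% of Myh2 and 18.9% of Myh4 are found in another gene as well, mostly one another, and 28.25% of Myh7, mostly in Myh6. For Tnnc2 the figure was 55.0%, all of it shared with Ube2c, a cell division gene that overlaps it on the opposite strand, and for Mb 34.0%. For Myl1 it was 23.4%, all of it shared with Mylf-ps, while Casq2, Eno3 and Ldb3 shared none. In all, 9 of the 43 genes overlap an annotated gene on the opposite strand, among them Myl3 with Pth1r. Whether reads were counted by strand is not given in the sources used here, so the values of these genes are uncertain; the share of reads this touches was not measured. No such stretch was found for 19 genes, among them Mylpf, Tnnt3, Tnnt1, Pvalb and Eno3.

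The authors' deposited table of comparisons, at its adjusted p under 0.05, listed 40 of the 43 genes as lower at p21 than in SW males at p28 (28.5% of all genes were listed in either direction) and 36 as lower at p21 than in DW males (31.3%). In females it listed 5 as lower at p21 than after standard weaning (23.9%) and 0 against delayed weaning (27.3%). The authors' deposited table listed 5 genes as lower in DW than SW females (16.9%) and 4 as lower in DW than SW males (7.59%). The 4 in males were slow genes, Myh7, Tnnt1, Tnni1 and Tnnc1, the ones for which SW male 85 stood far above the other SW males. Between the sexes the authors' deposited table listed 5 as higher in p21 females (10.4%), 0 after standard weaning (9.21%) and 9 as lower in DW females (19.6%).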

How the data were processed

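Poly(A) RNA from 24 inguinal fat pads (4 animals in each of 6 groups) was sequenced on a NovaSeqXPlus, per the labels' protocols. The submitters' processing notes name fastp, HISAT2, featureCounts, DESeq2 1.38.3 and mm10, without roles or parameters. The deposited values (unit: signal) are whole reads divided by a factor per animal: 100% of values came out whole within 0.001 of a read. Reads, from 57600711 to 302145813 per animal, were recovered from them. The authors also deposited log2 fold changes and adjusted p-values, which are printed only where named. The file's 16208 rows held 16118 genes; 90 repeated rows were left out.

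The main test was limma 3.58.1 (R 4.3.3) on log2(deposited value + 1) of the 16005 genes that passed edgeR's filterByExpr with a minimum count of 10. All 24 animals and 6 group means entered, with 18 residual degrees of freedom and Benjamini-Hochberg adjustment. Alternatives were edgeR 4.0.16 and DESeq2 1.42.0 on the reads, a pseudocount of 0.1, no filter, library quality weights, the compared groups alone, runs of animal numbers as a covariate and leaving out each animal; leaving out animals 53 and 84 and a Ckm covariate were added after seeing the data. The limma fit was tested on simulated data. The 36 pairs of animals within a group differed beyond sampling noise (smallest chi-square per degree of freedom 79.52). That excess does not show that animals with neighbouring numbers are independent. Each animal was counted as a sample of its own, and p-values measure the spread between these animals.

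The 43 genes, the gene lists and the tests were chosen with earlier results of these data known. Any of the 43 could be named; values by animal were to be given for a fixed set of 21. Values by animal of Mybpc1 and Mybpc2, and the non-list genes named outside the highest of each list or those called, were chosen after their values were seen. Per-length levels used transcript lengths of GENCODE M21. Coordinates are RefSeq's, since only 2.23% of 16095 deposited gene starts equal those of GENCODE M21.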

Additional observations from a re-analysis of the deposited data

Results flagged for a closer look

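In each group of 4 animals the highest and lowest value of 21 genes and of the share of reads was compared with its nearest neighbour by Dixon's ratio, at its 95% critical value, on the log2(value + 1) scale for genes. Of 132 sets of values 19 had an animal far from the others. The critical value flags about 1 in 20 sets of independent, normal values. These sets come from the same animals and most genes move together in them, so the 19 are not set against that rate. The flags fell on 6 animals.

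SW male 85 was far above its group for slow genes and Sln: Myh7 at 6.93 (next 1.02), Tnnt1 at 6.42 (1.37), Tnni1 at 3.236 (0.514), Tnnc1 at 4.198 (0.644) and Sln at 1.859 (0.0887). SW male 84 was far below for Ckm at 5.427 (next 8.249) and Myh4 at 7.549 (10.57). P21 male 38 was far above for Ckm at 5.44 (next 0.921), Tnnc2 at 4.956 (1.774) and the share of reads at 0.1088% (0.02084%).

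P21 female 36 was far above for Myh2 at 4.563 (next 0.558), Myh7 at 3.845 (0.392), Tnnt1 at 2.579 (1.292) and Myl2 at 2.379 (0.273). SW female 75 was far below for Myl2 at 1.405 (next 3.073). DW female 83 was far above for Tnni1 at 1.29 (next 0.231), Tnnc1 at 1.931 (0.741), Myl2 at 3.32 (0.4605) and the share of reads at 0.4463% (0.03318%).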

How the results depend on the processing

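Counts of the 43 genes called depended on the animals and the tool. The share of all genes called under each alternative is not given beside them. For SW minus p21 males (26 by limma) the count was 42 with library quality weights, 0 with Ckm as a covariate and 1 to 32 leaving out each animal. For DW minus p21 males (25) it was 15 by edgeR, 6 without animals 53 and 84, 0 with Ckm as a covariate and 0 to 34 leaving out each animal. For SW minus p21 females (1) it was 0 by edgeR, 1 by DESeq2 (Cox6a2, not Myh2), 21 with weights, 4 with the compared groups alone, 0 with Ckm as a covariate and 0 to 3 leaving out each animal. DW minus SW gave 5 lower in males with weights and 1 in females by DESeq2. Female minus male gave 0 to 2 after standard weaning leaving out each animal, and 29 lower with weights and 0 to 3 leaving out each animal after delayed weaning. The cause was not tested.

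A Ckm covariate takes out most of the change of genes that follow Ckm, so the signs left over are not read as results. With it 16 changes reversed, none past the threshold. For SW minus p21 males these were Acta1 -0.193, Myh4 -0.556, Atp2a1 -0.627, Mylpf -0.448, Tnnt3 -0.434, Pvalb -0.688 and Ttn -0.416. For DW minus p21 males they were Acta1 -0.266, Myh4 -0.203, Atp2a1 -0.658, Actn3 -0.107, Mylpf -0.56, Tnnt3 -0.498, Tnnc2 -0.023, Pvalb -0.666 and Ttn -0.415. Of 21 called changes of the fixed genes, edgeR kept 4 past the threshold and DESeq2 17, all in the same direction. The 114.9-fold span of the share of reads was 258.2-fold for the median over the genes. All 8 pairs could be compared in 16 animals at 10 reads and in 6 at 100 reads. No paired analysis was possible because the replicate numbers are animal numbers that no 2 groups share. With the run of animal numbers as a covariate, in the 5 comparisons within p28, 0 of the 43 genes were called, as without it. DW females 76 and 77 were more alike over all genes (chi-square per degree of freedom 129.4), as were 82 and 83 (126.5), than animals across these pairs (610.0 to 811.5). DW males 79 and 80 (80.42) and 86 and 87 (92.14) were likewise more alike than animals across these pairs (169.1 to 256.5). So were p21 males 37 and 38 (206.9) and 53 and 54 (138.3), against 308.3 to 373.6 across. Neighbouring numbers were not always the most alike: p21 females 30 and 36 gave 271.6, and 36 and 55 gave 95.03.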
